A study of Danio rerio with 2 samples.

Results

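The mpeg1 genes of zebrafish encode macrophage-expressed protein 1, also called perforin-2, and the promoter of one of them drives the EGFP reporter by which the cells of these plates were sorted. The members described here are 2 of the 22342 genes in the plate tables, chosen by identifier: ENSDARG00000055290, which is mpeg1.1, and ENSDARG00000043093, a paralog that the annotation names only MPEG1 and that is called by its identifier below. The tables give a further identifier with the MPEG1 symbol, ENSDARG00000078569, which held 2 unique molecular identifiers (UMIs, each counting one captured transcript) in all wells together and is not described further. The question was which of the EGFP-sorted cells held transcripts of the driver gene. Transcripts of the EGFP and mCherry transgenes were not analysed here.

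Perforin-2 is a pore-forming protein of the membrane attack complex/perforin family. It sits in the membranes of phagosomes and endosomes of macrophages and other phagocytes and damages engulfed bacteria. In zebrafish larvae, lines with an mpeg1 promoter in front of a fluorescent protein are widely used to mark macrophages.

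Embryos carrying mpeg1:EGFP and runx1+23:mCherry were taken at 3 days post-fertilization (dpf). The runx1+23 enhancer marks hematopoietic stem and progenitor cells (HSPCs), so a cell with both colors carried the macrophage reporter and a signal from the stem cell reporter. Tails were dissociated, and single live cells were sorted into 2 plates of 384 wells and sequenced by SORT-seq, a plate-based protocol that counts UMIs. On each plate, 192 wells received EGFP+mCherry+ cells (the mCherry+ gate) and 192 received EGFP+mCherry- cells (the mCherry- gate). Every well therefore received an event called EGFP-positive by the sorter, and there were no EGFP-negative wells in the tables. How many embryos each plate held and whether the plates came from separate clutches are not given in the sources used here, so the spread between plates may be technical.

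Wells with at least 500 UMIs and 200 genes were kept, which left 534 of 768. Plate 1 kept 143 mCherry+ and 151 mCherry- wells, and plate 2 kept 123 and 117. Their depth ran from 507 to 157636 UMIs, with group medians from 7904 to 10738. Wells were clustered without the MPEG1 genes and classed by marker lists or leading genes, so that no mpeg1 transcript helped to define a class. This gave 216 macrophage-like wells, 126 neutrophil-like wells, 33 erythroid-like wells and 14 muscle-like wells. Each cluster was compared with all other wells. The 3 macrophage-like clusters raised 9, 7 and 10 of 20 macrophage markers, and both neutrophil-like clusters raised 9 of 10 neutrophil markers. The muscle-like cluster raised 14 of 14 muscle markers. The erythroid-like cluster raised 9 of 11 erythroid markers and also 4 of 12 HSPC and progenitor markers. A cluster of 67 wells, led by chromatin genes such as hmga1a and by cd34, raised only 1 of 12 HSPC and progenitor markers. It is therefore called the cd34/hmga1a wells rather than progenitor-like. A cluster of 17 wells led by COL1A1, col1a1a and COL1A2 raised 9 of 12 fibroblast markers and 5 of 8 epithelial markers and is called collagen-rich. The other 61 wells fell in 2 shallow clusters with no class. These clusters raised 3 and 6 of 14 muscle markers. They were not named for them because their median depth was low (1028 and 1359 UMIs) and no muscle marker was among their leading genes. The name describes the clusters and not each well, since 12 of their wells had at least 5000 UMIs. Some symbols are written as the annotation gives them, in human style. The 384 well names were the same on both plates and were never matched across them. No doublet caller was run.

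The kept wells held 2145 UMIs of mpeg1.1 and 212 UMIs of ENSDARG00000043093. Macrophage-like wells were 40.4% of the kept wells and held 38.8% of all their UMIs, yet they contained 85.5% of the mpeg1.1 UMIs (1835 of 2145, exact binomial 95% interval 84.0 to 87.0%). For ENSDARG00000043093 the share was 86.8% (184 of 212, 81.5 to 91.0%). Neutrophil-like wells, 23.6% of the wells with 19.9% of the UMIs, contained 0.746% of the mpeg1.1 UMIs (16 UMIs) and 1.89% of those of the paralog (4 UMIs). These intervals, like all intervals on shares and levels here, cover counting error only. The classes rest on the expression of other genes in the same wells, so differences between classes are described without a test.

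Shares of wells with a transcript depend on depth, so each well was thinned at random to 2000 UMIs, which 470 of the 534 kept wells reached. At that depth, 162 of 470 EGFP-sorted wells held a UMI of mpeg1.1, or 34.5% (30.2 to 39.0%). The share was 21.7% on plate 1 (57 of 263 wells) and 50.7% on plate 2 (105 of 207 wells). By gate it was 17.9% in mCherry+ and 25% in mCherry- wells on plate 1, but 63.2% and 37.6% on plate 2. The order of the gates thus turned between the plates when all classes were pooled. Without thinning, 259 of 534 kept wells (48.5%) held mpeg1.1. Of the 400 kept wells with at least 5000 UMIs, 163 (40.8%) held no UMI of either gene. These included 87 of 102 neutrophil-like, 37 of 44 cd34/hmga1a and 26 of 29 erythroid-like wells, but 3 of 189 macrophage-like wells. The rest were 4 of 14 collagen-rich, 3 of 10 muscle-like and 3 of 12 shallow wells.

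**Figure D1:**
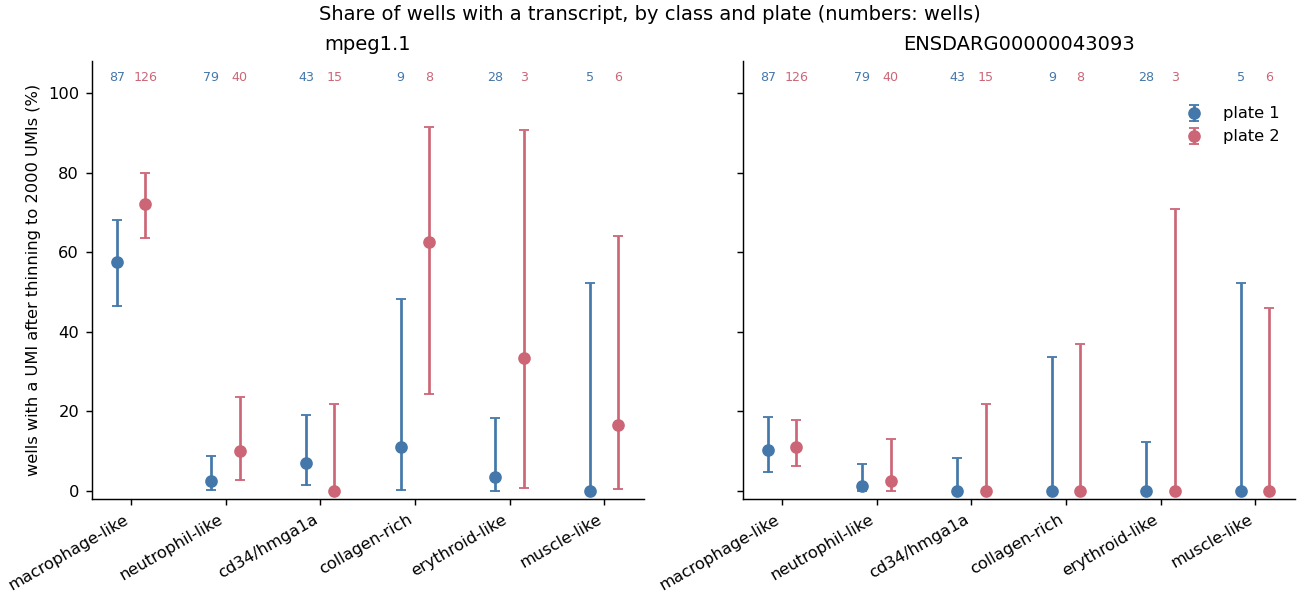
Percent of wells with at least 1 UMI after thinning each well to 2000 UMIs (y axis) for 6 classes (x axis), mpeg1.1 on the left and ENSDARG00000043093 on the right; points are plates, bars are exact binomial 95% intervals and the small numbers are wells. For mpeg1.1, macrophage-like wells sit at 57.5% and 72.2% on the 2 plates and neutrophil-like wells at 2.53% and 10.0%, while the paralog stays at or below 11.1% in every class.

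Macrophage-like wells held mpeg1.1 most often. At 2000 UMIs, the transcript was found on plate 1 in 17 of 30 mCherry+ wells (56.7%, 37.4 to 74.5%) and 33 of 57 mCherry- wells (57.9%, 44.1 to 70.9%). On plate 2 it was found in 58 of 74 mCherry+ wells (78.4%, 67.3 to 87.1%) and 33 of 52 mCherry- wells (63.5%, 49.0 to 76.4%). Over both plates and gates this was 141 of 213 wells, or 66.2% (59.4 to 72.5%). Without thinning the share was 94.0% (203 of 216), so most macrophage-like wells that lacked the transcript at 2000 UMIs held it at their full depth. Among the 213 thinned wells, 57 held 1 UMI, 67 held 2 to 4 and 17 held 5 or more, with a highest value of 8.

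Neutrophil-like wells, identified by granule and secreted genes such as lyz, npsn and EPX, rarely held mpeg1.1 although they had entered an mpeg1:EGFP sort. At 2000 UMIs the transcript appeared in 2 of 79 wells on plate 1 (2.53%, 0.308 to 8.85%) and 4 of 40 wells on plate 2 (10.0%, 2.79 to 23.7%). Each of these 6 wells held a single UMI. Thinned shares rest on 1 random draw. Averaged over draws, the expected share in neutrophil-like wells of both plates was 2.78%, beside 5.04% drawn. For macrophage-like wells it was 71.2%, beside 66.2% drawn. Without thinning 14 of 126 neutrophil-like wells (11.1%) held mpeg1.1, and none held more than 2 UMIs of it. The median depth of the class, 8434 UMIs, was near that of macrophage-like wells, 10304 UMIs.

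The cd34/hmga1a wells held mpeg1.1 in 3 of 58 cases at 2000 UMIs (5.17%, 1.08 to 14.4%), all on plate 1 in this random draw. The expected share was 7.65%. Without thinning the transcript was found in 10 of 67 cases (14.9%), 5 of 49 on plate 1 (10.2%) and 5 of 18 on plate 2 (27.8%). Collagen-rich wells held it in 1 of 9 cases on plate 1 (11.1%, 0.281 to 48.3%) and in 5 of 8 on plate 2 (62.5%, 24.5 to 91.5%). Erythroid-like wells held it in 2 of 31 cases (6.45%, 0.791 to 21.4%). Muscle-like wells held it in 1 of 11 cases at 2000 UMIs (9.09%, 0.230 to 41.3%) but in 7 of 14 without thinning (50.0%), at a median depth of 46266 UMIs. The intervals of the collagen-rich, erythroid-like and muscle-like classes on single plates mostly spanned much of the range. The exception was erythroid-like wells on plate 1, at 1 of 28 (3.57%, 0.0904 to 18.3%). These classes could not be ordered against one another. By gate, the cd34/hmga1a wells with mpeg1.1 at 2000 UMIs were 2 of 41 mCherry+ and 1 of 17 mCherry-. Collagen-rich wells with it were 4 of 15 mCherry+ and 2 of 2 mCherry-, and the single muscle-like well was 1 of 7 in the mCherry+ gate against 0 of 4 in the other. With so few wells the gates could not be compared in these classes.

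ENSDARG00000043093 was found less widely. At 2000 UMIs it appeared in 23 of 213 macrophage-like wells (10.8%, 6.97 to 15.8%) and in 2 of 119 neutrophil-like wells (1.68%, 0.204 to 5.94%). It appeared in 0 of 58 cd34/hmga1a wells, which allows a share of up to 5.17%, and in 0 of 17 collagen-rich, 0 of 31 erythroid-like and 0 of 11 muscle-like wells, which allow up to 17.6%, 9.68% and 27.3% at this depth. Without thinning it was present in 80 of 216 macrophage-like wells (37.0%), 3 of 17 collagen-rich, 2 of 33 erythroid-like, 3 of 14 muscle-like and 0 of 67 cd34/hmga1a wells. In macrophage-like wells the share by gate was 2 of 30 (mCherry+) against 7 of 57 (mCherry-) on plate 1 and 12 of 74 against 2 of 52 on plate 2. The gate with the higher share thus differed between the plates. The paralogs were detected together in 17 macrophage-like wells at 2000 UMIs, mpeg1.1 alone in 124, ENSDARG00000043093 alone in 6 and neither in 66. Of the wells with the paralog 73.9% held mpeg1.1, against 65.3% of the wells without it. Reads shared by the MPEG1 genes could be counted for either of them, and how such reads were assigned is not given in the sources used here, so the split between the paralogs is uncertain.

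As a level, CPM (counts scaled to 1000000 UMIs) of the UMIs summed over a class, mpeg1.1 stood at 805 in macrophage-like wells (710 on plate 1 and 866 on plate 2). The classes followed in the order shallow wells (416; plates 195 and 742), collagen-rich (260; 97.3 and 412), muscle-like (73.1; 10.2 and 108), erythroid-like (72.4; 56.7 and 172), cd34/hmga1a (38.2; 24.9 and 74.6) and neutrophil-like (13.7; 7.33 and 28.6). The plate values of every class overlapped in range with those of its neighbor in this order. Within each plate, each class stood above the next, except that erythroid-like wells stood above muscle-like wells on both plates. The muscle-like level of plate 1 rests on 3 UMIs, and the erythroid-like level on few wells. The ranges of macrophage-like and collagen-rich wells did not overlap, nor did those of macrophage-like wells and any class below. In all 7 groups the level was higher on plate 2 than on plate 1.

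Among single wells, mpeg1.1 in macrophage-like wells ran from 0 to 28.0 UMIs per 10000. On plate 1 the median was 7.82 in mCherry+ and 5.92 in mCherry- wells, and on plate 2 it was 9.77 and 5.46. The wells of the gates overlapped over most of their range on both plates. In neutrophil-like wells the median was 0 in 3 of the 4 groups, the exception being the 3 mCherry+ wells of plate 2 at 1.21. The highest neutrophil-like well, at 12.05, was a single UMI in a well of 830. The highest cd34/hmga1a well, at 22.2, held 5 UMIs in 2251. The erythroid-like level rested on few wells, since 24 of the 25 UMIs on plate 1 and all 12 on plate 2 lay in 1 well each. In muscle-like wells 32 of the 60 UMIs lay in 1 well.

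**Figure D2:**
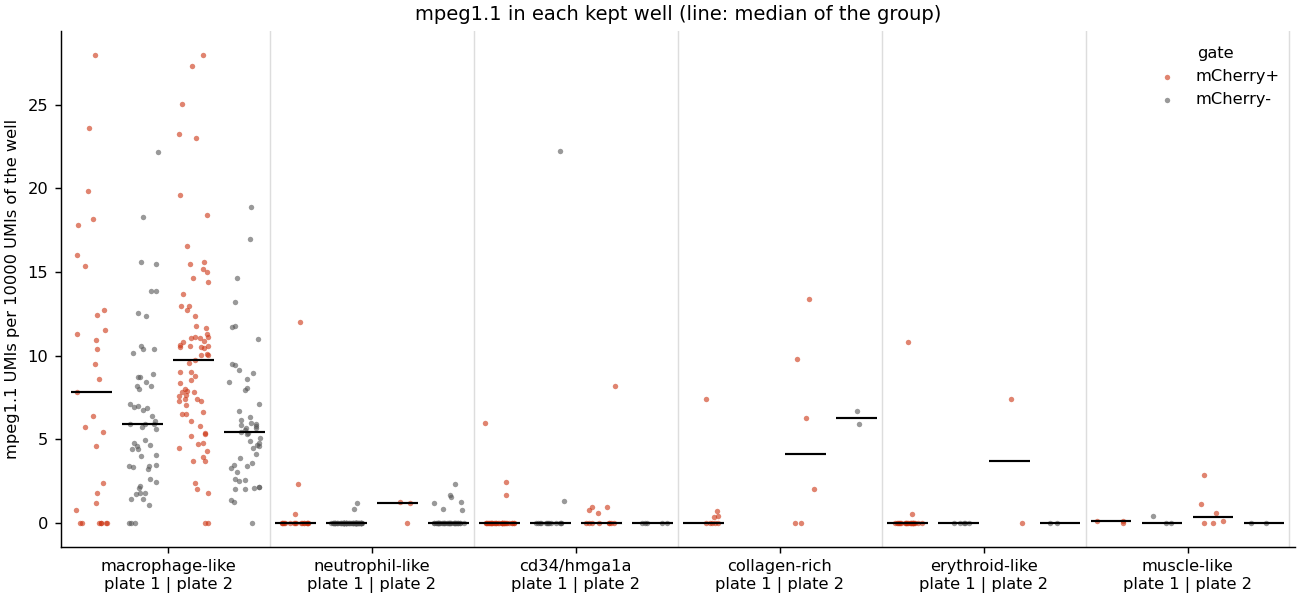
UMIs of mpeg1.1 per 10000 UMIs of each kept well (y axis) by class, plate and gate (x axis; within each class plate 1 is left of plate 2, mCherry+ red and mCherry- gray); black lines are group medians. Macrophage-like wells spread from 0 to 28.0 with medians of 5.46 to 9.77, whereas most wells of the neutrophil-like, cd34/hmga1a and erythroid-like classes lie at 0. Shallow wells are not drawn.

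The level of ENSDARG00000043093 was 80.8 CPM in macrophage-like wells (68.9 and 88.3 on the plates) and 40.3 in shallow wells (30.1 and 55.3). It was 11 in muscle-like, 9.40 in collagen-rich, 5.87 in erythroid-like and 3.42 in neutrophil-like wells, with 9, 3, 3 and 4 UMIs in all. In the cd34/hmga1a wells 0 UMIs were counted in 549392, which allows up to 5.46 CPM. The values of these 5 classes rest on so few molecules that they were not ordered.

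A few mpeg1.1 molecules in a neutrophil-like well can be set beside other macrophage transcripts counted in the same wells. Of the 20 macrophage marker genes matched in the tables (the MPEG1 genes left out), 13 held at least 50 UMIs in the macrophage-like wells of each plate and were used here. The same list had named the macrophage-like class, so low marker values in other classes were partly fixed in advance. In neutrophil-like wells mpeg1.1 stood at 1.03% of its macrophage-like level on plate 1 (counting interval 0.379 to 2.24%) and at 3.30% on plate 2 (1.58 to 6.07%). The scavenger receptor marco stood at 1.28% and 1.92%, havcr1, whose mammalian homologs bind phosphatidylserine, at 1.12% and 2.65%, and the MFAP4 gene ENSDARG00000088745 at 1.25% and 1.96%. The 13 markers had a median of 2.23% on plate 1 and 2.59% on plate 2. The mpeg1.1 value thus lay below the marker median on plate 1 and above it on plate 2. On plate 1 only 1 of the 13 markers, c1qb with 0 UMIs, stood lower, whereas 9 did on plate 2. Some markers stood much higher, with the cathepsin gene ctss2.1 at 74.1% and 60.2% and the chemokine receptor gene cxcr3.2 at 22.3% and 39.0%. In the other direction lyz, the lysozyme gene of neutrophils, was counted at 593 CPM in macrophage-like wells against 67811 CPM in neutrophil-like wells, and 139 of 213 macrophage-like wells held it at 2000 UMIs.

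**Figure D3:**
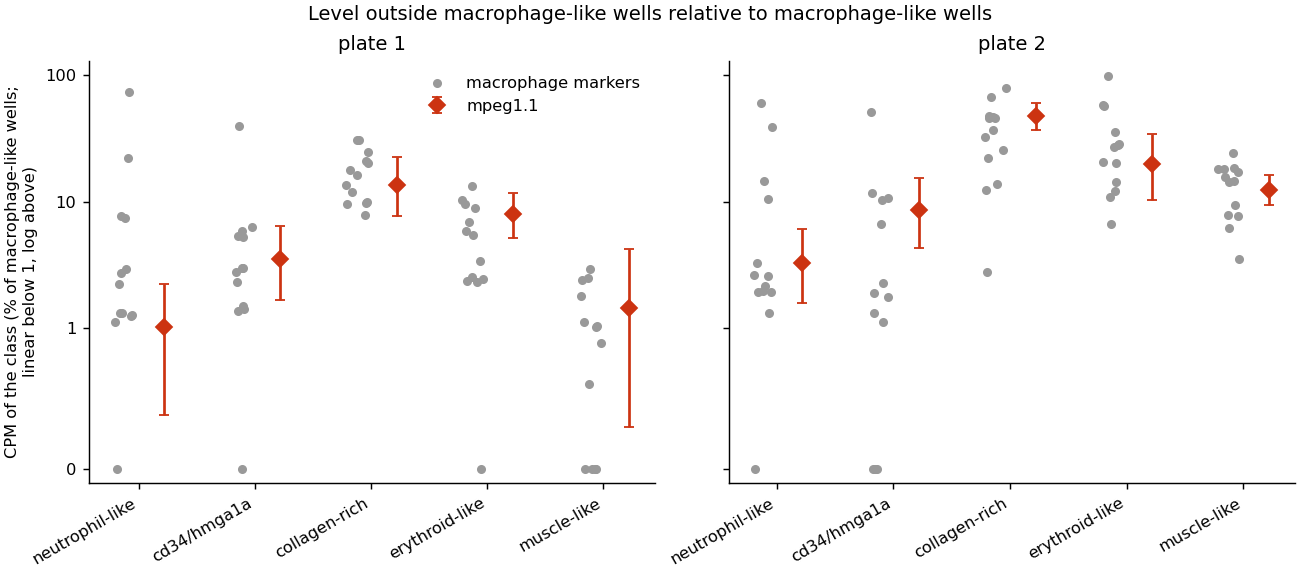
CPM of a class as a percent of the CPM in macrophage-like wells of the same plate (y axis, linear below 1 and logarithmic above) for mpeg1.1 (red, with counting interval) and 13 other macrophage markers (gray), by class (x axis) and plate (panels). The mpeg1.1 value lies within the range of the other markers in every class, at 1.03% and 3.30% in neutrophil-like wells and at 13.7% and 47.5% in collagen-rich wells. In neutrophil-like wells of plate 1 only 1 marker, with 0 UMIs, lies below it. The markers helped to name the macrophage-like class, so their low values elsewhere are partly fixed in advance.

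In cd34/hmga1a wells mpeg1.1 stood at 3.50% and 8.62% of its macrophage-like level on the 2 plates, where the marker medians were 2.98% and 1.89%. It was thus higher on plate 2 while the marker median was lower. It stood at 13.7% and 47.5% in collagen-rich wells (marker medians 16.3% and 37.2%), at 7.98% and 19.9% in erythroid-like wells (5.50% and 27.3%), and at 1.44% and 12.5% in muscle-like wells (1.02% and 14.6%). In each class the value lay within the range of the 13 markers on both plates, a range that ran from 0 to 74.1% in neutrophil-like wells of plate 1. Summed over all 20 markers, macrophage-like wells had 13225 CPM on plate 1 and 16446 on plate 2. The classes below them ranged from 153 CPM in muscle-like to 1986 in collagen-rich wells on plate 1 and from 739 in cd34/hmga1a to 6114 in collagen-rich wells on plate 2. Of the 20 markers, 3 to 10 on plate 1 and 2 to 8 on plate 2 were at 0 in these 5 classes. Whether RNA of other cells, a second cell in the well or transcription by the cell itself gave these molecules was not tested.

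Within a class, the wells with mpeg1.1 could be compared with those without it at the same 2000 UMIs. Among cd34/hmga1a wells of plate 1 the 3 with mpeg1.1 held 4, 5 and 15 UMIs of the 20 macrophage markers, against a median of 0.5 and a highest value of 3 in the 40 without it. On plate 2 no thinned well of this class held mpeg1.1, so it could not be compared. Unthinned, 5 of 13 mCherry+ wells there held 11 mpeg1.1 UMIs. The markers reached at most 18.3 UMIs per 10000 in that group, against a median of 180 in macrophage-like wells of the same gate and plate. The 2 erythroid-like wells with mpeg1.1 held 34 and 48 marker UMIs, against at most 3 in the 29 without it. The 5 collagen-rich wells of plate 2 with it had a median of 13, against 1 in the 3 wells without it, although 1 of those 3 held 23. Among these thinned wells, and in the single muscle-like well with 11, mpeg1.1 was found mostly beside other macrophage transcripts. Neutrophil-like wells differed in this respect, since their 6 wells with mpeg1.1 held 0 or 1 marker UMIs, against medians of 2 and 3 in the wells without it. Most marker UMIs of that class were ctss2.1 (688 of 935 on plate 1 and 307 of 513 on plate 2, unthinned). The marker sum there is thus a poor measure of other macrophage transcripts, and the contrast is not like that in the other classes.

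A line drawn at 10 macrophage marker UMIs, placed after the values had been seen, gives these values as counts and is no test of them. Of the macrophage-like wells 204 of 213 were at or above this line, and 140 of them (68.6%, 61.8 to 74.9%) held mpeg1.1. Outside the macrophage-like class 17 of 257 wells reached it, and 12 of these (70.6%, 44.0 to 89.7%) held mpeg1.1. The shallow wells were an exception, with mpeg1.1 in 3 of the 7 that reached the line. Of the 240 wells below it, 9 (3.75%, 1.73 to 7.0%) did, 6 of them neutrophil-like. No neutrophil-like well of 119 reached 10.

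**Figure D4:**
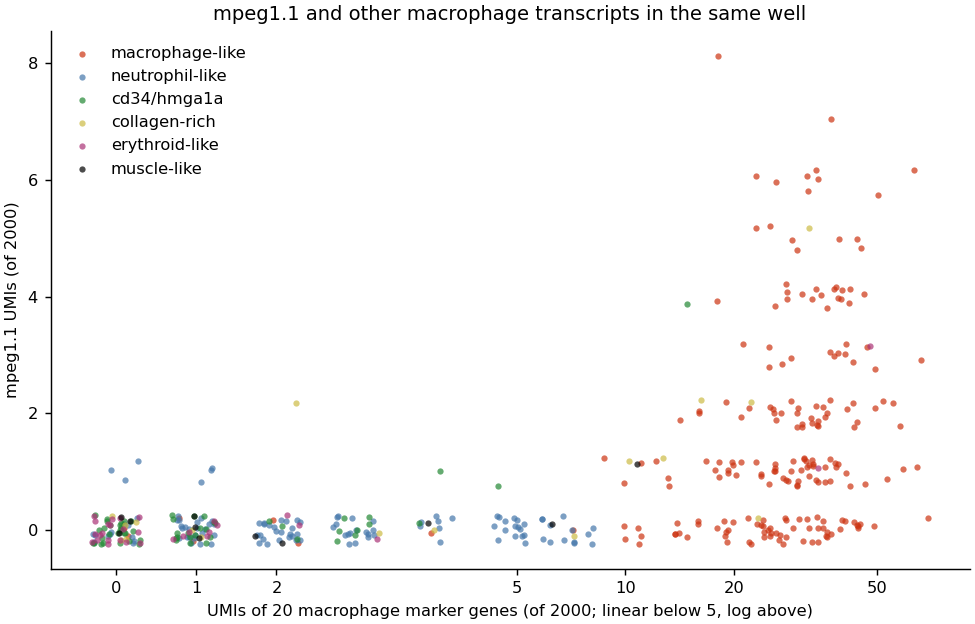
UMIs of mpeg1.1 (y axis) against the summed UMIs of 20 other macrophage marker genes (x axis, linear below 5 and logarithmic above) in each well thinned to 2000 UMIs, colored by class, with small random offsets so that points do not hide each other. Macrophage-like wells (red) lie mostly at 10 marker UMIs or more. Of the other wells drawn that reach 10, mpeg1.1 is present in 5 of 6 collagen-rich and 2 of 2 erythroid-like wells. It is also present in 1 of 1 cd34/hmga1a and 1 of 1 muscle-like wells. Shallow wells are not drawn.

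Conversely, 13 macrophage-like wells held no mpeg1.1 at full depth. Of these, 7 were mCherry+ wells and 3 mCherry- wells of plate 1, and 2 and 1 were on plate 2. In 5 of the plate 1 mCherry+ wells the macrophage markers summed to only 2.33 to 8.36 UMIs per 10000, so these wells go against their class. The other 8 held 44.1 to 180 marker UMIs per 10000, and 3 of them held 1 UMI of ENSDARG00000043093.

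The gates were compared on UMIs summed per gate and plate, with edgeR's quasi-likelihood test and plate as a block, over all genes that passed the filter. Over all kept wells mpeg1.1 stood at 160 and 291 normalized CPM in the mCherry+ and mCherry- sums of plate 1, and at 634 and 354 on plate 2. The log2 fold change of mCherry+ over mCherry- was -0.01 (SE 0.43, 95% interval -0.97 to 0.95, adjusted p = 0.996 by edgeR). The plates went in opposite directions, with -0.86 on plate 1 and 0.84 on plate 2. ENSDARG00000043093 stood at 8.54 normalized CPM in the mCherry+ sum and 39.4 in the mCherry- sum of plate 1, and at 70.5 and 22.6 on plate 2. Its log2 fold change was -0.20 (SE 0.80, -2.01 to 1.6, adjusted p = 0.937 by edgeR), with -2.05 and 1.58 on the plates. Neither gene was called, where 4.75% of the 9904 genes tested were called in either direction at an adjusted p under 0.05. The make-up of the sums differed with plate and gate. Macrophage-like wells were 31 of 143 kept wells in the mCherry+ and 57 of 151 in the mCherry- gate on plate 1, but 75 of 123 and 53 of 117 on plate 2. On each plate mpeg1.1 was higher in the gate with the larger share of macrophage-like wells, and the part of composition in the result was not tested.

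Within macrophage-like wells mpeg1.1 was higher in the mCherry+ sum of both plates but did not pass the adjusted threshold. Its level was 881 CPM (262 UMIs, counting interval 778 to 995) in mCherry+ and 624 CPM (367 UMIs, 562 to 691) in mCherry- wells of plate 1. On plate 2 it was 997 CPM (892 UMIs, 933 to 1065) and 630 CPM (314 UMIs, 562 to 704). The groups did not overlap, with both mCherry+ sums above both mCherry- sums. The log2 fold change was 0.55 (SE 0.21, 95% interval 0.06 to 1.04, unadjusted p = 0.0312 and adjusted p = 0.268 by edgeR), with 0.40 and 0.70 on the plates. Among the 5372 genes tested, 1.95% were called in either direction, and mpeg1.1 was not one of them.

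For ENSDARG00000043093 the macrophage-like sums went in opposite directions on the plates. Its level was 40.4 CPM (12 UMIs) in mCherry+ and 83.3 CPM (49 UMIs) in mCherry- wells of plate 1, and 115 CPM (103 UMIs) and 40.1 CPM (20 UMIs) on plate 2. The log2 fold change was 0.35 (SE 0.57, 95% interval -0.96 to 1.65, adjusted p = 0.881 by edgeR), with -1.07 and 1.47 on the plates. In neutrophil-like wells neither gene passed the filter on low counts, so neither was tested in the main setting, where 3.54% of the 3644 genes tested were called. With no filter, the log2 fold change of mpeg1.1 was 1.04 (SE 1.45, adjusted p = 0.987 by edgeR). That of the paralog was -0.03 (SE 1.48, adjusted p = 0.997 by edgeR). The mpeg1.1 sums of neutrophil-like wells were 4 UMIs in 20 mCherry+ and 2 in 63 mCherry- wells of plate 1. On plate 2 they were 2 UMIs in 3 and 8 in 40 wells. The paralog had 0 and 2 UMIs on plate 1, then 1 and 1. As a level, mpeg1.1 stood at 13.3 CPM (mCherry+) and 3.86 CPM (mCherry-) on plate 1, and at 72.7 and 24.8 on plate 2. The counting intervals of the gates overlapped on both plates. In thinned wells mpeg1.1 was found in 1 of 19 mCherry+ and 1 of 60 mCherry- wells of plate 1. On plate 2 it was found in 1 of 3 and 3 of 37.

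**Figure D5:**
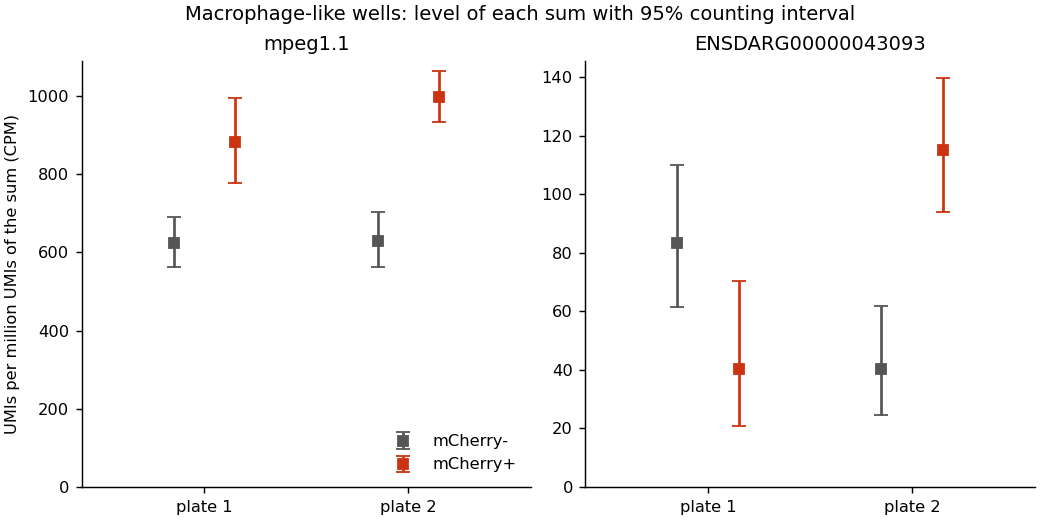
CPM of mpeg1.1 (left) and ENSDARG00000043093 (right) summed over macrophage-like wells (y axis) by plate (x axis) and gate (mCherry- gray, mCherry+ red), with exact Poisson 95% intervals of the UMI count. Both mCherry+ sums of mpeg1.1 (881 and 997) lie above both mCherry- sums (624 and 630), whereas the paralog is lower in the mCherry+ sum of plate 1 and higher in that of plate 2.

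The macrophage-like wells fell in 3 clusters that were not shared evenly by plates and gates. A cluster led by an MFAP4 gene, SLC40A1 (ferroportin, the iron exporter), selenop, marco and HMOX1 (heme oxygenase) held 62 wells, 58 of them mCherry+. Its mpeg1.1 level over both plates was 1062 CPM (counting interval 987 to 1141), with 1049 on plate 1 and 1065 on plate 2. The cluster that held most of the plate 2 mCherry- macrophages (85 wells, 80 of them on plate 2) stood at 749 CPM (693 to 809). Its 5 wells on plate 1 were at 1048 CPM (770 to 1393), beside the 1049 of the first cluster on that plate, and its plate 2 wells at 733. The cluster found only on plate 1 (69 wells) stood at 616 CPM (559 to 678). The shares of wells with mpeg1.1 at 2000 UMIs were 78.7%, 67.9% and 52.9% in the same order. The gates could be set side by side inside a cluster on 1 plate each. In the plate 2 cluster mpeg1.1 was 883 CPM in 30 mCherry+ and 622 CPM in 50 mCherry- wells, and in the plate 1 cluster it was 563 CPM in 15 mCherry+ and 628 CPM in 54 mCherry- wells. The latter order turned without 6 of the 15 mCherry+ wells that held few macrophage markers (under 10 UMIs per 10000), a setting chosen after seeing the data, where the other 9 stood at 888 CPM (694 to 1118). The part of cluster membership in the gate difference was not tested.

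The genes most like mpeg1.1 were sought over 20 sums of class by gate by plate, among 5980 genes. Likeness was Pearson's correlation of log2(CPM + 50), given as a description because the sums share plates, depth and the way classes were made. The 10 closest genes had correlations from 0.949 to 0.973, against a median of 0.0039 over all genes. They were paox1, a polyamine oxidase, havcr1, 2 MFAP4 genes (ENSDARG00000090783 and ENSDARG00000088745), c1ql1, the lysosomal peptidases DPP7 and TPP1, the lysosomal cysteine protease CTSB, ENSDARG00000078382, and mrc1b, a mannose receptor. Of these, 3 were also macrophage markers that had helped to name the classes. ENSDARG00000043093 ranked 147th, with a correlation of 0.821.

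Driver genes of other zebrafish blood reporters gave a yardstick, with 10 of 13 symbols matched and 12 identifiers holding at least 20 UMIs. Of these 12, 4 had their highest level in macrophage-like, 4 in neutrophil-like, 1 in collagen-rich and 3 in erythroid-like wells. The MFAP4 genes, marco, lyz and gata1a were themselves in the marker lists that named the classes. Where they peaked was therefore partly fixed in advance. At 2000 UMIs the MFAP4 gene ENSDARG00000088745 was found in 198 of 213 macrophage-like and 13 of 119 neutrophil-like wells, and marco in 144 and 4. The leukocyte-wide CORO1A was found in 156 of 213 macrophage-like, 112 of 119 neutrophil-like and 35 of 58 cd34/hmga1a wells. In these 3 classes the distribution of mpeg1.1 (141 of 213, 6 of 119 and 3 of 58) lay close to that of marco (144 of 213, 4 of 119 and 3 of 58), a gene of the macrophage marker list. Elsewhere they parted in places. In the 4 erythroid-like wells of plate 2 marco stood at 99.3% of its macrophage-like level, against 19.9% for mpeg1.1. In collagen-rich wells they stood at 25.7% and 47.5% on plate 2 but at 13.6% and 13.7% on plate 1.

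All 7 myeloid transcription factors of the fixed list were measured, and 6 had their highest level in macrophage-like wells. IRF8, required for macrophage formation in zebrafish embryos, was found in 36 of 213 macrophage-like and 0 of 119 neutrophil-like wells at 2000 UMIs. The factor spi1a was found in 122 of 213 and 27 of 119 wells, and SPI1 (listed as spi1b) in 119 and 85, the exception with its highest level in neutrophil-like wells. CEBPA was shared, with 94 of 213 and 53 of 119. Of 13 genes for other proteins with a membrane attack complex/perforin domain 9 were matched, and only c7b, a terminal complement component, reached 20 UMIs, with its highest level, 25.5 CPM, in macrophage-like wells.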

How the data were processed

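Both plates hold wells of both gates, so gate and plate are crossed. The authors deposited expected counts per gene and well: UMI counts corrected for collisions of a 6-base tag. Wells were named by position in the labels. BWA, Seurat and the build GRCz11 are named in the submitters' processing notes without their roles, and gene symbols came from a table of gene names. Each value was turned back into whole UMIs (within 0.005) for shares and intervals, and spike-ins (1.13% of counts) were set aside. Wells with at least 500 UMIs and 200 genes were clustered with scanpy 1.11.5 (2000 variable genes, 30 components, 15 neighbors, Leiden resolution 1). The macrophage-like, neutrophil-like, erythroid-like and muscle-like names needed at least 3 markers raised by a log2 difference of 1. In a cluster of low median depth they also needed a marker of the list among the 10 leading genes. The name collagen-rich needed at least 3 collagen genes among the 10 leading genes of a cluster. The name cd34/hmga1a needed either of those genes among them. Shares used wells thinned to 2000 UMIs (seed 1) with Clopper-Pearson 95% intervals, and CPM used exact Poisson intervals. A count of 0 was given the limit of 3 counts. Gates were tested with edgeR 4.0.16 (quasi-likelihood, TMM, filterByExpr) on rounded sums per gate and plate with plate as a block and Benjamini-Hochberg adjustment over all genes. Sums of the same plate deviated together only weakly (correlations of 0.119, 0.061 and 0.026 over genes for all, macrophage-like and neutrophil-like wells); the block follows from the labels, which put both gates on each plate. The self-test used simulated sums. DESeq2 1.42.0, other size factors, depths, filters and classings were tried as alternatives. Named genes were both mpeg1 genes, the 10 most like mpeg1.1 among genes with at least 100 UMIs over sums of at least 5 wells and 10000 UMIs, and fixed lists of reporter drivers, myeloid transcription factors and perforin-domain proteins. Members and lists were chosen with earlier results of these data known. Values of some members of the transcription factor list are not reported here.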

Additional observations from a re-analysis of the deposited data

Results flagged for a closer look

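Wells under the minimum depth were left out of every comparison, and those of plate 2 nonetheless held mpeg1.1. There, 14 UMIs lay in 12 of 144 such wells, above the 3 counts taken as the limit of a count of 0. This was 541 CPM of their 25863 UMIs (counting interval 296 to 908). The 90 wells of plate 1 under the minimum held 0 in 16490 UMIs, which allows up to 182 CPM. ENSDARG00000043093 was at 0 in all 234 such wells.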

How the results depend on the processing

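Of 130 values under another setting, 105 kept their direction and side of the threshold or moved by less than the spread between plates. With 1 plate left out 27 of 32 values did so, but that count is no measure of stability. For shares and their differences the spread was itself taken from the same 2 plates. The cause of the other values was not tested unless the setting itself gives it. In macrophage-like wells the log2 fold change of mpeg1.1 between gates stayed positive, from 0.50 to 0.81 over 12 settings, and none passed (adjusted p from 0.075 to 0.99). Its lowest p came without 6 plate 1 mCherry+ wells of few macrophage markers (0.70), a setting chosen after seeing the data. Over all kept wells the sign of mpeg1.1 turned with no filter (0.011), whole UMIs (0.015), the largest wells left out (0.0098), muscle-like wells left out (0.11), thinned wells (0.69) and no replicate block (0.30), where that of the paralog turned too (0.32). With 1 plate left out, the all-well values ran from -0.86 to 0.84 for mpeg1.1 and from -2.05 to 1.58 for the paralog, and the macrophage-like paralog value from -1.07 to 1.47. No call of a member changed without the block.

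Shares follow depth by construction: mpeg1.1 was found in 50.2% of macrophage-like wells at 1000 UMIs, 93.7% at 5000 and 94.0% unthinned, and unthinned in 11.1% of neutrophil-like, 14.9% of cd34/hmga1a and 50.0% of muscle-like wells. The paralog was found in 9.30%, 27.0% and 37.0% of macrophage-like wells at the same settings, 12.6% by expected share and 11.4% when clustered with the MPEG1 genes, and in 0% (1000 UMIs), 3.17% (unthinned) and 0.609% (expected share) of neutrophil-like wells. Unthinned, the mCherry+ minus mCherry- difference for mpeg1.1 in macrophage-like wells turned from 6.84 to -9.05 percentage points. Its sign also turned at 5000 UMIs (-2.34), a move within the spread between plates (11.4), and on plate 1 alone (-1.23). The other settings gave positive values, up to 14.9 on plate 2 alone. Wells of at least 1000 UMIs gave 28.6% for erythroid-like wells, a class of only 8 wells under that clustering, and 90.1% of paralog UMIs in macrophage-like wells. Under it, a cluster of 30 wells led by blf and RHAG, genes that also led the main erythroid-like cluster, fell in no named class. That cluster raised 4 of 12 HSPC and progenitor, 5 of 16 proliferation and 3 of 11 erythroid markers. With 1 plate left out, shares ran from 0 to 6.98% in cd34/hmga1a and from 3.57 to 33.3% in erythroid-like wells. By Jaccard index 3 of the 10 genes most like mpeg1.1 remained.

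Counts of genes called between gates moved widely. Over all wells the 470 calls became 1102 with no filter, 57 with no replicate block, 163 in thinned wells and 43 without muscle-like wells. In macrophage-like wells the 105 (63 up, 42 down) became 2 (2 up, 0 down) with RLE size factors and also 2 without the well of each sum that held most of the paralog, 66 by DESeq2, 67 with whole UMIs, 18 with no replicate block, 299 with no filter, 272 at 1000 UMIs, 154 thinned, 286 without the low-marker wells, and 239 and 517 under other classings. In neutrophil-like wells the 129 became 10 by DESeq2, 11 with no replicate block, 76 with no filter, 63 at 1000 UMIs, 6 thinned and 80 when classed by marker sums.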
